A study of Mus musculus with 8 samples.

Results

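The comparison set control-knockdown line 2 against control-knockdown line 1, which are clones of mouse embryonic stem (ES) cells that carry the same kind of control construct and no knockdown of the gene the study targeted. The members are all 4 arrays of these lines among the 8 arrays of the study, 2 arrays per line, with 40860 mouse probes tested. All lines came from IB10, a subclone of the male E14 ES line. Cells were transduced with a pLKO-puro lentivirus that expresses a short hairpin RNA, selected in puromycin, picked as single colonies and expanded on gelatin with serum and LIF. The other lines, Taf5-kd line 1 and Taf5-kd line 2, went through the same steps with a hairpin against Taf5. Each line was grown in duplicate, and each culture was hybridised against pooled RNA of the parental ES cells. Insertion sites of the virus were not used here.

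Each line is 1 clone, so the 2 arrays of a line are repeat cultures and the p-values measure the spread between cultures of these clones, not between clones in general. Array number 1 of a line carries it in Cy3 and array number 2 in Cy5, and line 2 was compared with line 1 within the same dye orientation. Values are log2 ratios of line over parental reference. A difference is line 2 minus line 1 on that scale, given ± its standard error (SE), and a probe was called at a Benjamini-Hochberg adjusted p under 0.05 in limma.

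ES cells kept in serum and LIF are a mixed population that moves between a naive state and states closer to the epiblast or to the primitive endoderm. Primitive endoderm is the extraembryonic layer that gives rise to the visceral and parietal endoderm. It is specified by GATA6 downstream of FGF and ERK signalling, and it secretes the type IV collagen and laminin of basement membranes. When a single colony is expanded, the clone starts from the state and the chromosomes of a single founder cell. Whether the founders played a part in the differences below was not tested.

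The clones differed at many genes, mostly by little. Of the 40860 probes 3068 were called higher (7.51%) and 2984 lower (7.30%) in line 2, which is 14.8% of all probes. With each gene represented by its brightest probe, 1510 of 18258 genes were higher (8.27%) and 1715 were lower (9.39%), and all 3225 moved the same way on both array pairs. Only 61 of the genes called higher and 18 of those called lower differed by at least 2-fold. The median size of the difference was 0.30 over called probes and 0.07 over all probes, and the median SE was 0.06. Probes at least 2-fold higher on the number 1 arrays counted 104, and 70 of them were at least 2-fold higher on the number 2 arrays. Across all probes the differences of the 2 array pairs correlated at 0.69, as a description, since the arrays of a line share the clone.

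The share of probes called rose with brightness, from 2.36% of the 10215 dimmest probes to 25.9% of the 10215 brightest. The correlation between the array pairs was 0.16 in the first set and 0.79 in the second. The median signal of the line's channel was 123 to 186 against a local background of 35 to 39.5, and 90.9 to 98.7% of spots were above background. Differences of dim genes were therefore less often detectable on these arrays.

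**Figure D1:**
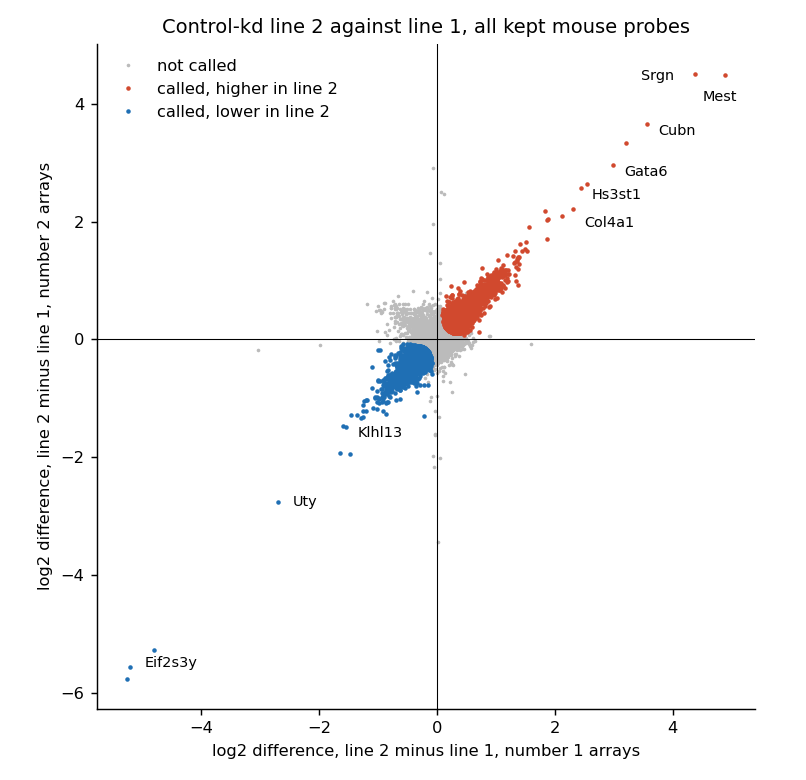
Difference of control-kd line 2 minus line 1 (log2) for each of the 40860 probes, on the number 1 arrays (x axis) and on the number 2 arrays (y axis). Red and blue points are the 3068 probes called higher and the 2984 called lower, and grey points were not called. The labelled genes run from Eif2s3y at -5.38 to Mest at 4.68. A probe with no gene symbol lay lower, at -5.51.

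The largest rises in line 2 were in an imprinted gene and in genes of the primitive endoderm. Mest, a paternally expressed imprinted gene, stood at -6.36 and -6.08 in line 1 and at -1.47 and -1.60 in line 2. It was thus below the parental cells in both control lines and far lower in line 1, a difference of 4.68 ± 0.09 or 25.7-fold (adjusted p = 1.01e-09). Srgn, the proteoglycan serglycin, read -0.91 and -0.93 in line 1 and 3.48 and 3.57 in line 2, a 21.8-fold difference (adjusted p = 1.01e-09). Hs3st1, a heparan sulfate sulfotransferase, read -0.90 and -0.98 against 1.55 and 1.59, and was 5.68-fold higher in line 2 (adjusted p = 3.94e-09). In all 3 genes the lines lay on clearly separate levels, and the gap between them was many times the gap between the arrays of a line.

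The other leading rises were of similar clarity. Aass, a lysine-degrading enzyme, read 0.46 and 0.43 in line 1 and 2.35 and 2.48 in line 2. Pmaip1, the p53-induced BH3-only protein Noxa, read 0.04 and -0.14 against 1.60 and 1.76. Dkk1, a secreted Wnt inhibitor, read -0.16 and -0.15 against 1.36 on both arrays. P4ha2, a collagen prolyl hydroxylase subunit with a further probe at 0.07 ± 0.05, Phlda1, a gene induced by growth factors, and Flrt3, a membrane partner of FGF receptors, were higher by 1.52 ± 0.07, 1.48 ± 0.05 and 1.40 ± 0.06. The adjusted p of these 6 genes lay between 4.19e-08 and 4.64e-07. The remaining leading rises, Cubn, Gata6, Col4a1, Sox7, Dab2 and Serpinh1, belong to the endoderm genes described next.

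**Figure D2:**
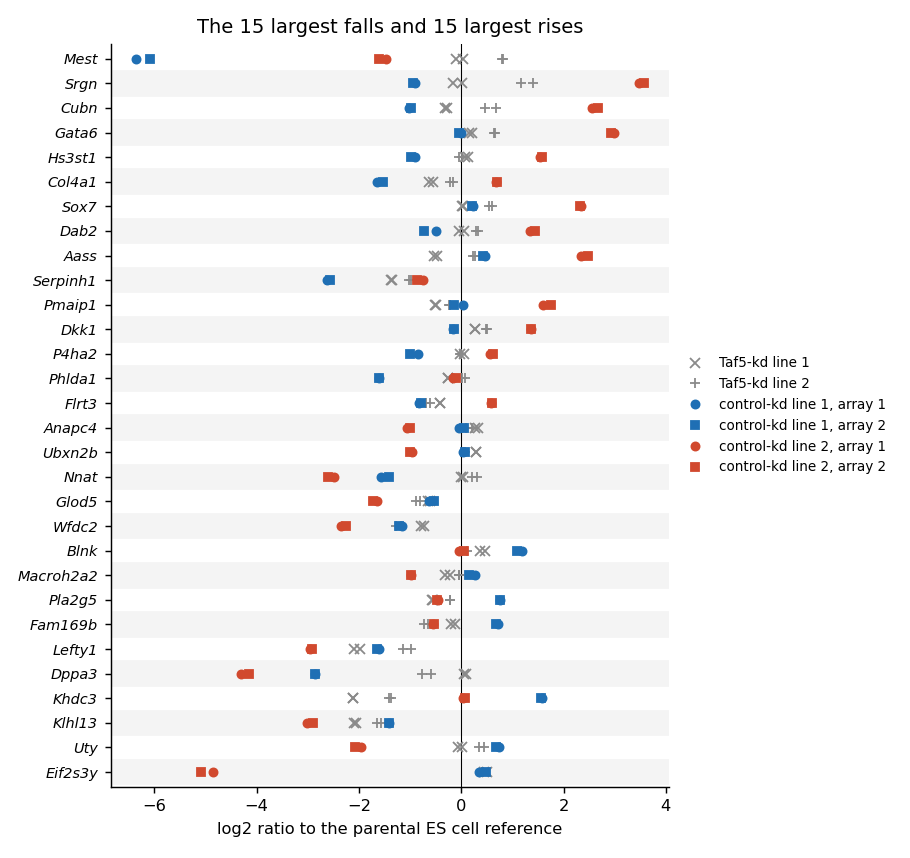
Log2 ratio to the parental reference (x axis) of the 15 genes with the largest falls and the 15 with the largest rises in control-kd line 2 against line 1. Circles and squares are the number 1 and number 2 arrays of the control-kd lines and grey marks are the Taf5-kd arrays. The arrays of a line lie close together in every gene shown, while the differences between the lines run from -5.38 to -1.03 and from 1.40 to 4.68.

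Genes of the primitive and parietal endoderm were higher in line 2. Of 27 measured genes of this list 19 were called higher and 1 lower, which is 74.1% of the list where 17.7% of all genes were called. The median difference of the list was 0.62 against -0.01 over all genes. None of the 27 genes lies in the chromosome stretches described below. The list was chosen with results of these data in view, so the counts are a description. In RNA from a whole culture, more cells of a type and more RNA per cell cannot be told apart.

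Among the transcription factors of the lineage, Gata6 read -0.01 and -0.04 in line 1 and 2.98 and 2.93 in line 2, so line 1 was at the parental level and line 2 was 7.87-fold above line 1 (adjusted p = 1.01e-09). Sox7, a parietal endoderm factor, read 0.22 on both arrays of line 1 and 2.34 and 2.32 in line 2 (4.32-fold, adjusted p = 8.38e-09). Sox17, a factor of extraembryonic and definitive endoderm, was higher by 0.57 ± 0.05 on its brightest probe. A dimmer probe of Sox17 read -0.02 and -0.14 in line 1 and 3.18 and 3.20 in line 2, a difference of 3.27 ± 0.10 (adjusted p = 4.19e-08), and another gave 0.06 ± 0.06. Foxa2, a factor of visceral and definitive endoderm counted in other lists, was higher by 0.94 ± 0.06. Gata4, which acts with GATA6, did not pass, with 0.08 and 0.03 in line 1 and 0.04 and 0.01 in line 2. Further probes of Gata6 gave 1.196 ± 0.08 and 0.04 ± 0.06, and a further probe of Sox7 gave -0.05 ± 0.07, so for these genes the size depended on the probe. The same held for Pdgfra, a receptor that marks primitive endoderm, at 0.23 ± 0.06 on its brightest probe and 2.60 ± 0.07 on another (adjusted p = 8.38e-09).

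The endocytic receptor of the visceral endoderm, formed by cubilin and amnionless, was higher with its adaptor. Cubn read -1.02 and -0.98 in line 1 and 2.55 and 2.67 in line 2 (12.2-fold, adjusted p = 2.93e-09). Amn was higher by 1.02 ± 0.06 and Lrp2, which encodes megalin, by 1.05 ± 0.07. Dab2, the clathrin adaptor of these receptors, read -0.49 and -0.73 in line 1, where only 1 of 2 arrays was above background, and 1.34 and 1.45 in line 2 (4.02-fold, adjusted p = 2.97e-07). Other probes of Dab2 gave 0.99 ± 0.07, 0.08 ± 0.06 and -0.02 ± 0.07. Afp and Ttr, secreted products of mature visceral endoderm, did not pass, at -0.06 ± 0.06 and -0.14 ± 0.07, and Afp was above background on only 1 of 2 arrays in each line. Hnf4a, a hepatic and endodermal nuclear receptor, stood at -0.01 ± 0.06.

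The chains of type IV collagen and of laminin on the endoderm list were called higher, and Nid1 was called lower. Col4a1 read -1.64 and -1.52 in line 1 and 0.67 and 0.69 in line 2 (4.80-fold, adjusted p = 1.61e-08), and its partner chain Col4a2 read -0.95 and -0.93 against 0.37 and 0.38 (2.49-fold, adjusted p = 2.76e-07). These genes lie head to head, and their promoters in the RefSeq sequences of GRCm38.p6 share 78 bases at chr8:11312777-11312854, shown here on the plus strand because both genes moved together.
Col4a1/Col4a2 overlap: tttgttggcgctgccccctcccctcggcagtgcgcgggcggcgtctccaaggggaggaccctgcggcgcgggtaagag
The laminin chains Lama1 and Lamb1 were higher by 1.05 ± 0.06 and 1.08 ± 0.05, and Lamc1 by 0.30 ± 0.07. Sparc, a collagen-binding protein that parietal endoderm secretes, was higher by 0.72 ± 0.06. Serpinh1, the collagen chaperone HSP47, read -2.62 and -2.57 against -0.74 and -0.86, a 3.45-fold difference that left it below the parental level in both lines. Nid1, which links laminin to collagen IV, was lower by -0.27 ± 0.07. Its difference stood at 0.22 when the scanner values were only centred on the median, where the median of all genes stood at 0.21. Other probes of Col4a1 gave 0.33 ± 0.05, 0.10 ± 0.06 and 0.08 ± 0.06, and another of Col4a2 gave 0.53 ± 0.07. On the wider extracellular matrix list 10 of 31 genes were higher and 6 lower, with a median difference of 0.03.

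**Figure D3:**
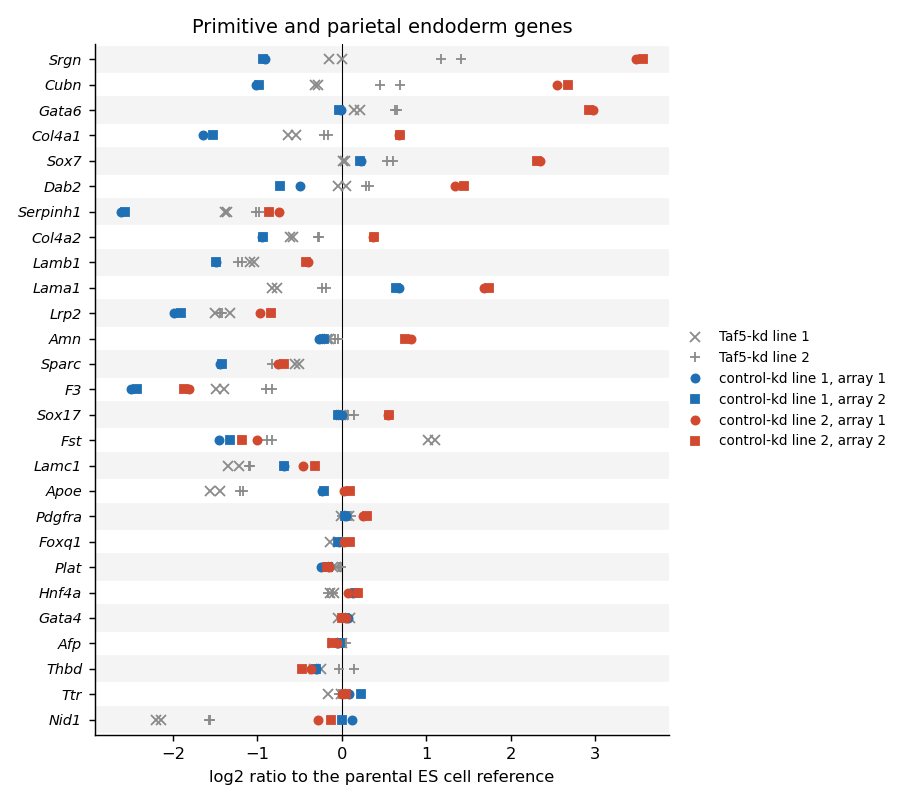
Log2 ratio to the parental reference (x axis) of all 27 measured primitive and parietal endoderm genes, ordered by the difference between the control-kd lines. Blue and red points are the arrays of control-kd line 1 and line 2, grey crosses and plus signs those of the Taf5-kd lines. From Pdgfra upwards the red points lie to the right of the blue ones, and for Srgn and Cubn the lines are more than 3 log2 units apart.

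Set against the parental cells, 4 of the 27 endoderm genes were above and 16 below in line 1, where 24.1% of all genes were above and 29.0% below. In line 2, 12 were above and 10 below, where 22.5% of all genes were above and 28.5% below. The Taf5-kd clones also differed from each other here, with 13 genes higher and 2 lower in Taf5-kd line 2 than in Taf5-kd line 1, where 5.64% and 9.26% of all genes were. Markers of other lineages stood closer to the background share. Of the trophectoderm and placenta list 7 of 22 were higher and 1 lower (median difference 0.08), of the definitive endoderm and gut list, which shares Gata6, 4 of 18 higher and 2 lower (-0.04), of the primitive streak and mesoderm list 4 of 22 higher and 2 lower (-0.01), of the neural list 3 of 25 each way (0.02), of the fibroblast list 4 of 22 higher and 2 lower (0.00) and of the blood and endothelial list 2 of 16 higher and 3 lower (0.01). The part of these cell types in the differences of endoderm genes was not tested.

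Genes of the primed epiblast, the state after implantation, were also higher in line 2. Of 16 measured genes 10 were called higher and 0 lower, where 8.27% and 9.39% of all genes were. The list had a median difference of 0.32. Otx2, a factor of the exit from naive pluripotency, read -1.82 and -1.92 in line 1 and -0.53 and -0.50 in line 2 (2.55-fold, adjusted p = 4.42e-07). Fgf5, the standard mark of this state, read -2.28 and -2.02 against -0.93 and -1.03 (2.24-fold, adjusted p = 1.50e-05), a call that loess-normalized scanner values did not give. Lef1, a Wnt effector, read -0.72 and -0.90 against 0.32 and 0.45, and Tcf15 was higher by 0.84 ± 0.06. Otx2 and Fgf5 stayed below the parental level in both control lines, and Lef1 was below it in line 1 and above it in line 2. Other probes of Lef1 did not pass, at 0.14 ± 0.06, 0.00 ± 0.07 and -0.05 ± 0.08. Cdh2, Sox3 and Nes, at -0.05 ± 0.06, -0.06 ± 0.05 and 0.10 ± 0.07, did not pass.

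The naive and core pluripotency genes moved both ways, with 8 of 29 higher and 8 lower, where 8.27% and 9.39% of all genes were. Their median difference was 0.09. Pou5f1, which encodes OCT4, was higher by 0.50 ± 0.07 and was above the parental cells in both lines. Zfp57, a keeper of imprints, was higher by 0.43 ± 0.07. Dppa3, a maternal factor that protects imprints from demethylation, read -2.85 and -2.87 in line 1 and -4.30 and -4.15 in line 2 (adjusted p = 2.04e-06), so it was far below parental in both and lower in line 2. Nanog, picked after its values were seen, read 1.03 and 1.09 against 0.61 and 0.62, a difference of -0.44 ± 0.07. This difference stood at 0.04 when the scanner values were only centred on the median, where the median of all genes stood at 0.21. Esrrb, Zfp42, Sox2 and Tbx3 did not pass, at -0.06 ± 0.05, -0.10 ± 0.11, -0.17 ± 0.05 and 0.19 ± 0.06. The ES cell markers Pou5f1, Nanog, Sox2 and Esrrb were above background on every array of both lines.

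Early targets of FGF and ERK signalling were higher in 8 of 26 and lower in 3, where 8.27% and 9.39% of all genes were. The phosphatases that ERK induces and that switch it off were among the higher ones. Dusp4 read -2.64 and -2.60 in line 1 and -1.28 and -1.25 in line 2 (2.57-fold, adjusted p = 2.76e-07), and Dusp6 was higher by 0.80 ± 0.07. Ier3 was lower by -0.63 ± 0.09. Etv5, Egr1 and Fos did not pass, at -0.02 ± 0.06, 0.19 ± 0.07 and 0.14 ± 0.06. Of the genes that answer to BMP, Nodal and TGF-beta, 4 of 18 were higher and 5 lower. The Nodal antagonists Lefty1 and Lefty2 were lower by -1.32 ± 0.07 and -0.83 ± 0.06, and Smad7 by -0.55 ± 0.06, while the BMP target Id1 was higher by 1.03 ± 0.06.

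Chaperones of the unfolded protein response, which adjusts the folding capacity of the endoplasmic reticulum, were higher in line 2. Of 20 measured genes 13 were called higher and 0 lower, where 8.27% and 9.39% of all genes were. The list had a median difference of 0.30 and a range of 0.00 to 0.52. Hspa5, the chaperone BiP, read -1.21 and -1.03 in line 1 and -0.65 and -0.55 in line 2, a 1.44-fold difference (adjusted p = 0.0118). Hyou1 was higher by 0.49 ± 0.07, Hsp90b1, the chaperone GRP94, by 0.45 ± 0.06, and the secreted factor Manf by 0.44 ± 0.05. These 4 genes were below the parental level in both lines, and line 2 lay closer to it. Other probes of Hyou1, at 0.05 ± 0.06, and of Manf, at 0.15 ± 0.06 and -0.05 ± 0.06, did not pass. Of the other probes of Hsp90b1, that at 0.40 ± 0.07 was called and that at 0.13 ± 0.06 was not. Hspa5 lost its call without array 1 of line 1 (0.40, adjusted p = 0.114), array 1 of line 2 (0.59, adjusted p = 0.0529) or array 2 of line 2 (0.46, adjusted p = 0.125).

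The promoters of this list often hold the endoplasmic reticulum stress response element, which is bound by NF-Y and ATF6. It was searched as CCAAT and CCACG with 9 bases between them, on both strands, from 250 bases before to 50 after the start of each gene in RefSeq. It was present in 35 of 27025 promoters (0.130%) and in 9 of the 17 promoters matched for the list. Of these genes Hspa5, Calr, Hsp90b1, Pdia6, Dnajc3 and Creld2 were called higher and Canx, Ero1b and Syvn1 did not pass, so matches occurred in 6 of 11 called genes and in 3 of 6 others. The promoters of Hspa5 (chr2:34771840-34772139, plus strand) and Hsp90b1 (chr10:86705395-86705694, minus strand, with 2 matches on opposite strands) are shown as the chaperone genes with the largest differences among those matched, with the element in capitals.
Hspa5: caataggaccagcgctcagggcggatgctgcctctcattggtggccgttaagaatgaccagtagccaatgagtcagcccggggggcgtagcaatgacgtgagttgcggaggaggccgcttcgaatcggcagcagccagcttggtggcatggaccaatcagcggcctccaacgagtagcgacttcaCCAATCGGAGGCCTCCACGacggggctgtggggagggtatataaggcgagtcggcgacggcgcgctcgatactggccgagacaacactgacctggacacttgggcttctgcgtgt
Hsp90b1: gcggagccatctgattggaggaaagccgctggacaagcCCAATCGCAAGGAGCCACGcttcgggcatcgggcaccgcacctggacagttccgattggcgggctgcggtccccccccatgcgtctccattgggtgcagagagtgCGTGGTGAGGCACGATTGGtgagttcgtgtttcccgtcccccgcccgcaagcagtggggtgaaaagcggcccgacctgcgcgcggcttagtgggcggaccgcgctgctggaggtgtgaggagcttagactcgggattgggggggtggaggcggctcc

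Sterol and amino acid genes were lower in line 2. Of 18 measured genes of cholesterol biosynthesis 14 were called lower and 0 higher, where 9.39% and 8.27% of all genes were. The list's median difference of -0.35 became 0.05 when scanner values were only centred on the median. Under that setting the median of all genes stood at 0.21. Dhcr7, the last enzyme of the pathway, read -0.40 and -0.56 in line 1 and -1.28 and -1.22 in line 2 (1.70-fold lower, adjusted p = 5.37e-05). Msmo1, Fdft1 and Fdps were lower by -0.61 ± 0.05, -0.57 ± 0.06 and -0.54 ± 0.06 on their brightest probes. A further probe of each did not pass, at -0.07 ± 0.08, -0.06 ± 0.06 and -0.01 ± 0.07, while a further probe of Dhcr7 was called lower, at -0.40 ± 0.06. On their brightest probes Fdft1 and Fdps lay above the parental cells in line 1 and below them in line 2. Of the 18 genes 9 were above and 7 below parental in line 1, and 4 were above and 11 below in line 2.

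Targets of ATF4, the factor that turns on amino acid synthesis and transport under stress, were mostly lower. Of 24 measured genes 15 were called lower and 5 higher, where 9.39% and 8.27% of all genes were. The list's median of -0.32 became 0.05 under median centring alone, where the median of all genes stood at 0.21. Without the 2 members in the chromosome stretches described below, Chac1 and Mthfd2, 14 of 22 were lower and 4 higher. Psat1 and Phgdh, which make serine, read -0.02 and 0.07, and -0.07 and -0.12, in line 1. In line 2 they read -0.66 and -0.73, and -0.77 and -0.75, which are differences of -0.72 ± 0.06 and -0.67 ± 0.05. Chac1, which degrades glutathione, was lower by -1.0 ± 0.07 and Nupr1 by -0.61 ± 0.06. Ddit3 and Slc3a2 did not pass, at 0.15 ± 0.06 and -0.01 ± 0.07.

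The motif that C/EBP and ATF4 bind together was searched as TGATGNAA on both strands of the same windows. It was present in 4.06% of all promoters and in 6 of the 21 matched for the ATF4 list, in 5 of the 14 called lower and in 1 of the other 7. The promoter of Nupr1 (chr7:126625421-126625720, minus strand) is shown as the member outside the chromosome stretches with a match and the largest difference.
Nupr1: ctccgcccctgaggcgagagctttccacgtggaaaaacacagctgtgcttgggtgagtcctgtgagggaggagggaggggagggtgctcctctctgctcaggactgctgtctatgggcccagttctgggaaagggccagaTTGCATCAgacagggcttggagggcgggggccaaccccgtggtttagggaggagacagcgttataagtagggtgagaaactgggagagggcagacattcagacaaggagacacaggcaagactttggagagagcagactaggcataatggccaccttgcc
Other motifs had few matches in their lists. CACCCCAC, the core of the sterol element, was found in 1 of 14 cholesterol promoters and 2.77% of all, and the motif of GATA factors, searched as AGATAA, in 2 of 16 endoderm promoters and 11.4% of all. The genes with a match were Hmgcs1 for the first and Hnf4a and Dab2 for the second. In the promoters printed here no match of 1 motif overlapped another.

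Targets of p53 were higher in 9 of 19 and lower in none, where 8.27% and 9.39% of all genes were. Plk2, a stress kinase, read -0.65 and -0.76 in line 1 and 0.01 and 0.09 in line 2, and Perp and Trp53inp1 were higher by 0.45 ± 0.05 and 0.42 ± 0.05. Cdkn1a, the cell cycle inhibitor p21, did not pass, at 0.08 ± 0.07. The largest difference of the list, 1.73 ± 0.07 for Pmaip1, lies in a chromosome stretch, and without it 8 of 18 were higher. Mitosis genes were lower in 8 of 26 and higher in none. Of these 8, Bub1, Cdc25b and Bub1b lie in a stretch of chromosome 2, which leaves 5 of 23. The median of the mitosis list, -0.12, became 0.35 under median centring alone, where the median of all genes stood at 0.21.

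Germline genes were higher in 9 of 32 and lower in 2, where 8.27% and 9.39% of all genes were. Mael and Hormad1, of the piRNA pathway and of meiosis, were higher by 0.71 ± 0.06 and 0.64 ± 0.06. A dimmer probe of each did not pass, at 0.02 ± 0.06 and 0.06 ± 0.05. Khdc3, of the maternal complex of the oocyte, was among the largest falls, with 1.57 and 1.56 in line 1 and 0.04 and 0.07 in line 2 (2.86-fold lower, adjusted p = 1.02e-07). Cytosolic ribosomal proteins, with 2 of 28 higher and 0 lower, and oxidative phosphorylation genes, with 3 of 34 higher and 1 lower, were called at 7.14% and 11.8%, under the 17.7% of all genes. For Hox genes 3 of 26 were higher and 0 lower, which is 11.5% called and also under the share of all genes.

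**Figure D4:**
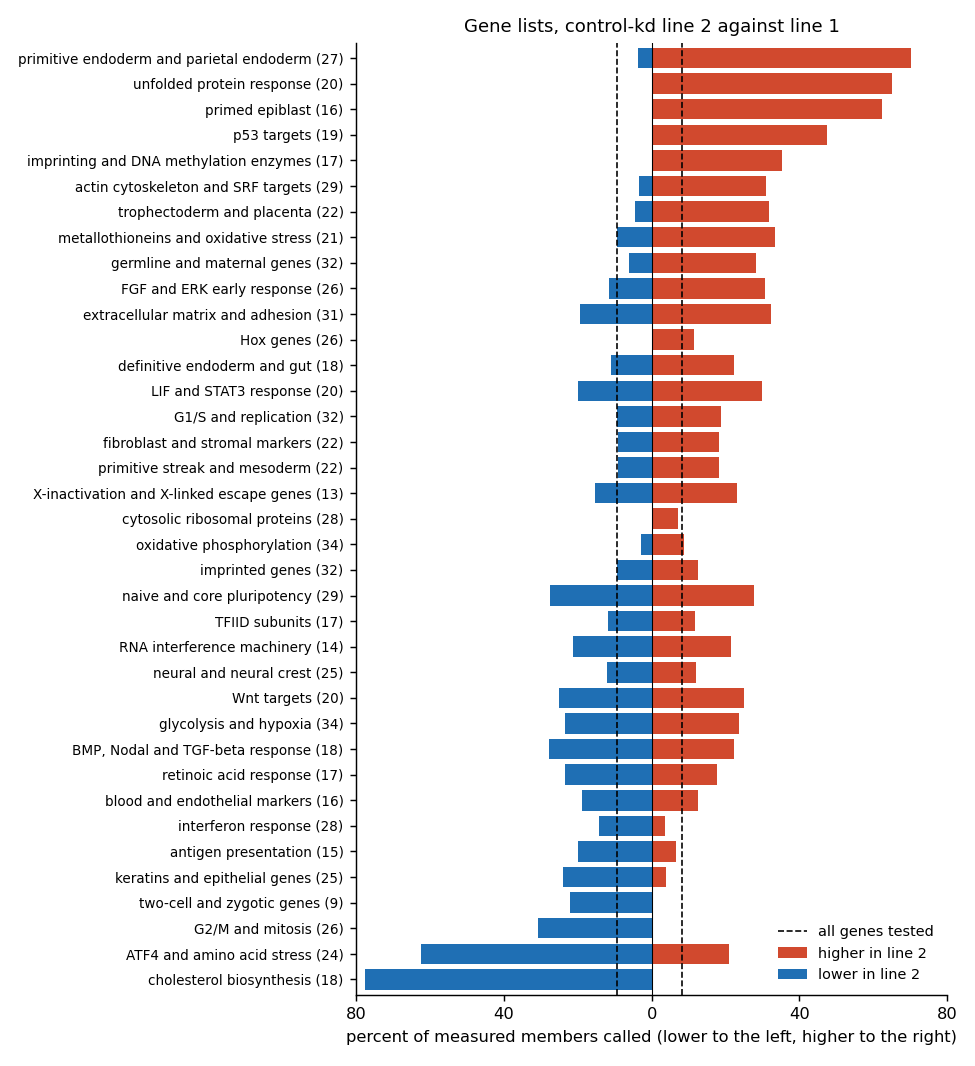
Percent of the measured members of each gene list (number measured in brackets) called lower (blue, left) or higher (red, right) in control-kd line 2 against line 1. Dashed lines give the share over all genes, 9.39% lower and 8.27% higher. The bars are longest for endoderm, unfolded protein response and primed epiblast genes on the right and for cholesterol and ATF4 genes on the left. The medians of the cholesterol and ATF4 lists turned to 0.05 under median centring alone, where that of all genes stood at 0.21.

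Other large falls were single genes of varied roles. Klhl13, an X-linked adaptor of a ubiquitin ligase, read -1.41 and -1.42 in line 1 and -3.01 and -2.89 in line 2 (2.90-fold lower, adjusted p = 2.76e-07), while its other 3 probes did not pass, at -0.02 to 0.11. Macroh2a2, a histone variant of silent chromatin, read 0.27 and 0.14 against -0.99 and -0.97. Pla2g5 and Fam169b were above the parental level in line 1 and below it in line 2, with differences of -1.21 ± 0.05 and -1.23 ± 0.06. Blnk, Wfdc2, Glod5 and Ubxn2b were lower by -1.14 ± 0.07, -1.11 ± 0.06, -1.10 ± 0.06 and -1.04 ± 0.05. Other probes of Ubxn2b gave 0.05 ± 0.12 and -0.21 ± 0.05. Nnat, an imprinted gene, read -1.58 and -1.40 against -2.49 and -2.61. Among the 32 measured imprinted genes 4 were higher and 3 lower, where 8.27% and 9.39% of all genes were. Igf2 followed Mest, with -3.77 and -3.84 in line 1 and -2.68 and -2.69 in line 2. H19, Peg3 and Dlk1 did not pass, at -0.08 ± 0.05, 0.00 ± 0.05 and -0.01 ± 0.06.

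Among genes with a symbol, the largest difference was in a gene of chromosome Y. Eif2s3y, a translation initiation factor subunit, read 0.34 and 0.48 in line 1 and -4.86 and -5.08 in line 2, where 1 of 2 arrays was above background. The difference was -5.38 ± 0.08 (adjusted p = 3.30e-10), and the signal in line 2 was close to background. Uty, a histone demethylase homologue, read 0.75 and 0.68 against -1.95 and -2.08, also with 1 of 2 arrays above background in line 2, and 3 of its 4 probes were called lower. The Taf5-kd lines were near the level of control-kd line 1 at Eif2s3y, with means of 0.47 and 0.42. Of the 10 measured genes of chromosome Y, Sly was higher by 0.42 ± 0.06 and the other 7 did not pass, with differences from -0.13 to 0.11. Among these, the probe of Kdm5d was bright and read -0.20 and -0.56 in line 1 and -0.58 and -0.23 in line 2. The specificity of this probe was not tested. Usp9y, Ssty1, Sry and Rbm31y were among the 10215 dimmest probes, of which 2.36% were called, so the lack of a call says little about them. Whether the Y chromosome was present in line 2 was not tested, since DNA was not measured.

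Some differences followed the order of genes along chromosomes. With genes brighter than the median of all genes placed in order, the running median of the difference over 25 genes passed 0.2 in size in 4 stretches, a rule set after the values had been seen. These stretches hold 671 genes, 320 of the 3225 called genes and 17 of the 79 that were called at 2-fold. Outside them and chromosome Y, 16.5% of 17577 genes were called. Gene order came from RefSeq (GRCm38.p6), and since the build of the array is not given in the sources used here, ends are named by genes.

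On chromosome 2, from Ldlrad3 to Sec23b, 139 of 197 brighter genes were called lower in line 2 and 3 higher. The median ratio to parental was 0.43 and 0.40 on the arrays of line 1 and 0.03 and 0.05 on those of line 2, so line 1 was the one that stood apart. On chromosome 6, from Gadd45a to Mrps25, 77 of 102 brighter genes were called higher in line 2 and 1 lower. Here the medians were -0.63 and -0.64 in line 1 and 0.00 and 0.03 in line 2. The Taf5-kd lines had medians of -0.02 in both stretches, at the level of control-kd line 2. Mcm2, a replicative helicase subunit on chromosome 6, showed it as a single gene, with -0.70 and -0.73 in line 1 and 0.31 and 0.29 in line 2.

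The other stretches were shorter. On chromosome 18, from Tcof1 to Pmaip1, 13 of 15 brighter genes were called higher in line 2, with medians of -0.61 and -0.63 in line 1 and 0.10 and 0.00 in line 2. The Taf5-kd lines had medians of -0.27 and -0.22 there, between the control lines. On chromosome 11, from Ccdc47 to Sdk2, 18 of 33 were called lower, with medians of 0.08 and 0.06 against -0.20 and -0.17, and the Taf5-kd lines stood at 0.17 and 0.18. Genes dimmer than the median, which the rule did not use, were called higher in 22 and lower in 1 of 107 on chromosome 6, and lower in 33 and higher in 2 of 162 on chromosome 2. On the rest of chromosomes 2, 6, 11 and 18 the median difference of brighter genes was between -0.02 and 0.01. The rest of chromosome 11 lay below parental in both control lines, with medians of -0.16 and -0.14. Whether the number of DNA copies differed was not tested.

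**Figure D5:**
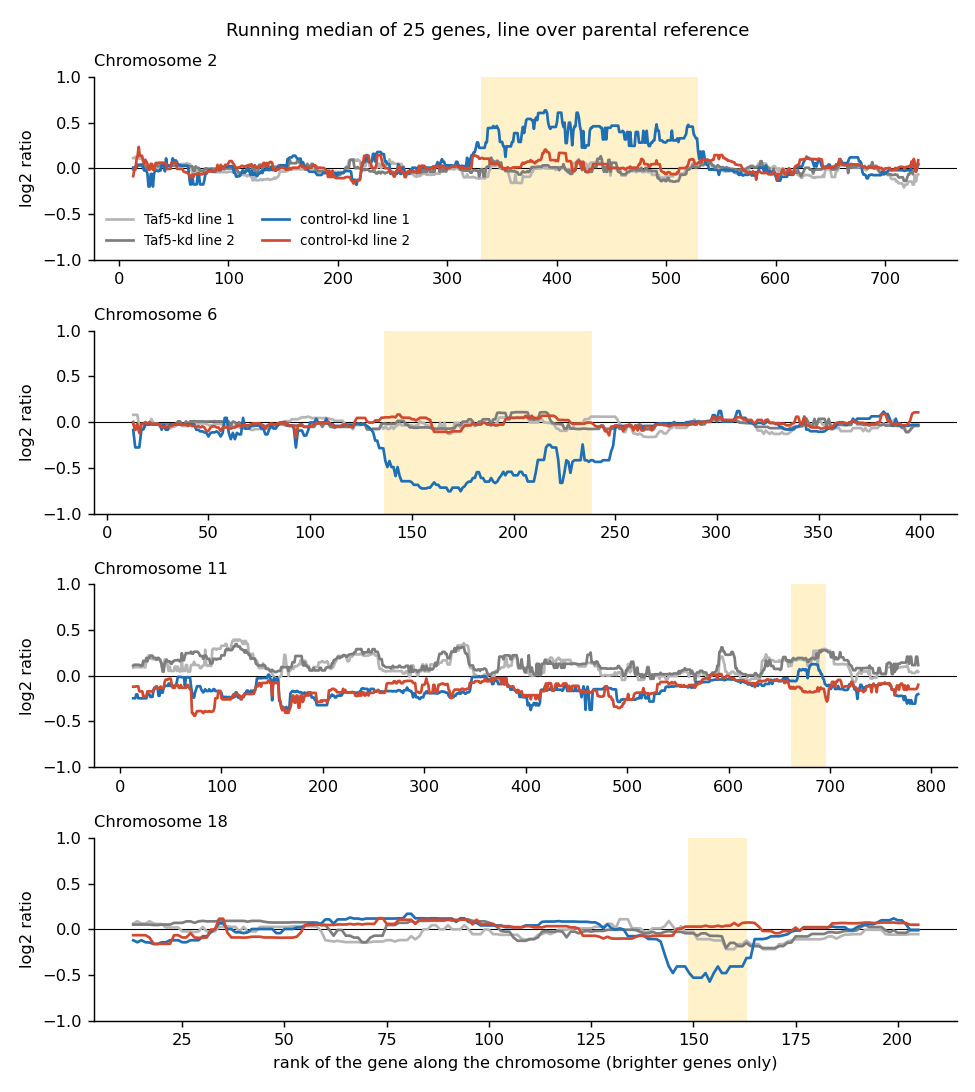
Running median over 25 brighter genes of the log2 ratio to parental (y axis) along chromosomes 2, 6, 11 and 18, by rank of the gene (x axis), for the 4 lines. In the shaded stretches control-kd line 1 (blue) has medians of 0.41 on chromosome 2, -0.65 on chromosome 6 and -0.63 on chromosome 18, against 0.05, 0.02 and 0.07 in control-kd line 2 (red), and on chromosome 11 the median difference is -0.26.

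Shorter groups of neighbours also moved together. Outside the stretches, 3 runs of 3 adjacent measured genes were all called in 1 direction by at least 0.4, by a rule set after the values had been seen. On chromosome 5 Pi4k2b, Zcchc4 and Anapc4 were lower by -0.74 ± 0.06, -0.51 ± 0.06 and -1.03 ± 0.06. Anapc4, a subunit of the anaphase-promoting complex, read -0.05 and 0.05 in line 1 and -1.06 and -1.01 in line 2. On chromosome 8 Cpe, Msmo1 and Klhl2 were lower by -0.61 ± 0.06, -0.61 ± 0.05 and -0.45 ± 0.07. The sterol enzyme Msmo1 thus fell with its neighbours on its brightest probe. Also on chromosome 8, Defa-ps6, Defa3 and Defa26 were higher by 0.55 to 0.70, but alpha-defensin genes are near-identical and their probes may share targets.

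Against the parental reference, 53.1% of genes were called in line 1 and 50.9% in line 2, or 46.9% and 43.9% of probes. Between the clones 17.7% of genes were called. The parental pool has no spread of its own here, and a contrast with it has a smaller SE than the difference between lines. The shares were therefore not reached at like power. Of the 3225 genes called between the clones, 1661 were past the threshold against parental in the same direction in both, 629 in line 1 only, 587 in line 2 only and 333 in opposite directions. Among the 79 genes with at least a 2-fold difference, 32 lay in opposite directions. The comparisons with parental share these arrays with the comparison of the clones, so these counts are a description.

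The Taf5-kd clones, compared with each other in the same way, differed at 14.9% of genes and 11.2% of probes, with 1030 genes higher and 1691 lower in line 2. Of the genes called in the control-kd pair 33.1% were called in the Taf5-kd pair, and of those called in the Taf5-kd pair 39.2% were called in the control-kd pair. At 2-fold, 79 and 92 of all 18258 genes were called in the control-kd and Taf5-kd pairs. Of these 5 were shared, which are 6.33% and 5.43% of each. These 5, named after their values were seen, were Amot, Dusp4, Fgf5, Otx2 and Srgn. Srgn was higher in line 2 of both pairs, by 4.45 ± 0.09 and 1.37 ± 0.09, while the other 4 were higher in control-kd line 2 and lower in Taf5-kd line 2. For Otx2 the differences were 1.35 ± 0.06 and -1.10 ± 0.06, and for Fgf5 1.17 ± 0.09 and -1.96 ± 0.09.

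Taf5 itself, the gene targeted in the other lines, read 0.49 and 0.58 in line 1 and 0.18 and 0.16 in line 2, against means of -1.17 and -1.13 in the Taf5-kd lines. The control-kd lines differed by -0.37 ± 0.06 (adjusted p = 0.00240), which stood at 0.08 under median centring alone, where the median of all genes stood at 0.21. Other probes of Taf5 were lower by -0.38 ± 0.06 and -0.40 ± 0.07. Of 17 subunits of TFIID, the complex that TAF5 belongs to, 2 were higher and 2 lower, where 8.27% and 9.39% of all genes were. Taf13 and Taf12 were higher by 0.60 ± 0.05 and 0.22 ± 0.05 and Taf1 was lower by -0.40 ± 0.06, or 0.05 under median centring alone. The call of Taf12 was lost without any 1 of the 4 control-kd arrays.

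The clones serve as controls for the Taf5-kd lines, and contrasts with each of them stand in the authors' deposited table as log2 differences. For Gata6 the authors' deposited table gives 0.18 for Taf5-kd line 1 against control-kd line 1 and -2.80 against control-kd line 2. For Srgn the authors' deposited table gives 0.82 and -3.63 for the same contrasts, and for Cubn it gives 0.67 and -2.94. For Eif2s3y the authors' deposited table gives 0.03 and 5.42, and for Mest it gives 6.15 and 1.47. For Dusp4 the authors' deposited table gives 3.47 and 2.11, so the direction was shared. These contrasts share the Taf5-kd arrays, and the gap between the entries of a gene equals the difference between the control clones, within 2.89e-05 plus a constant.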

How the data were processed

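Gene expression was measured on 8 dual-colour arrays, 2 for each of 4 clonal lines, with the dyes exchanged between the arrays of a line. The scanner tables hold, per the file headers, the mean intensity of 45220 spots in both channels with their local background. The series matrix holds log2 ratios deposited by the authors, turned to line over parental reference on every array, as the sign check against the scanner values showed. Array medians were -0.0061 to 0.0073. The sources used here do not give the background correction and normalization behind it. The authors' deposited comparison table gives log2 differences and a p-value from an unstated test, which was not used.

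Of 41174 mouse probes, 34186 have 1 gene symbol in the platform annotation and 6988 have none; symbols were updated through RefSeq (30365 current, 3726 by synonym, 75 ambiguous and 20 unmatched kept as given). Probes above background by 2 background SDs in either channel on at least 4 arrays were kept (40860). Where a gene had more than 1 probe, the probe with the highest mean signal stood for it. The matrix was fitted with limma 3.58.1 in R 4.3.3 (lmFit and eBayes, two-sided, all 8 arrays, a mean per line and a term for array number, which is the dye and is stated in the labels), with 3 residual and 7.11 prior degrees of freedom and Benjamini-Hochberg adjustment over all kept probes. Tables and plots used Python 3.11.15, pandas 2.3.3 and matplotlib 3.10.9. In simulated data for control-kd line 2 against line 1, over 40860 probes, 100 of 100 changes of 0.5 and 99 of 100 changes of 1 were recovered. There were 30 false calls, a share of all calls above 0.05. The noise was drawn as normal with each probe's moderated SD, and far fewer probes were changed than the 6052 called in the data.

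The array-number term was kept because in the matrix the mean difference between number 2 and number 1 arrays over the lines had an SD of 0.0055 over probes, against 0.168 in the scanner values, so the dye effect had already been removed, and deviations of arrays with the same number correlated negatively between lines, from -0.437 to -0.157. Differences in the matrix were 1.11 times those of loess-normalized scanner values, with a correlation of 0.97.

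Named genes are Taf5, the 15 largest rises and 15 largest falls among called genes with the same sign on both array pairs and an established symbol (no clone or predicted names), and up to 4 called members per list with the largest difference. List members given without a call, members beyond those 4, the ends and neighbours in chromosome stretches and genes shared by the clone pairs were added after their values were seen. The members, lists and tests were chosen with earlier results of these data known. The 37 lists were read as counts and medians, with no test of a list. Alternatives changed the source and normalization of the values, the filter, the probe per gene, the dye term, the variance model and the arrays used.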

Additional observations from a re-analysis of the deposited data

Results flagged for a closer look

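The genes below are those among the 149 named genes that were called between the control-kd clones and were also past the threshold against the parental reference in both, in opposite directions. They are 31 of the 333 called genes of this kind, 32 of which differed by at least 2-fold. The test of the difference is the one between the clones, with the value given as line 2 minus line 1 in log2 units. No explanation was tested.

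Named genes above parental in line 1 and below it in line 2 were Eif2s3y (-5.38), Uty (-2.73), Fam169b (-1.23), Pla2g5 (-1.21), Macroh2a2 (-1.19), Chac1 (-1.0), Spint1 (-0.81), Tgm2 (-0.66), Crabp1 (-0.64), Fdft1 (-0.57), Fdps (-0.54), Krt42 (-0.45), Gsc (-0.45) and Cdk6 (-0.45). Chac1 and Spint1 lie in the stretch of chromosome 2.

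Named genes below parental in line 1 and above it in line 2 were Srgn (4.45), Cubn (3.61), Hs3st1 (2.51), Col4a1 (2.26), Dab2 (2.01), Dkk1 (1.52), P4ha2 (1.52), Flrt3 (1.40), Col4a2 (1.31), Lef1 (1.19), Mcm2 (1.02), Dusp6 (0.80), Hormad1 (0.64), Hoxd13 (0.62), Tsix (0.61), Mbd1 (0.37) and Tead4 (0.35). Mcm2 lies in the stretch of chromosome 6 and Flrt3 in that of chromosome 2.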

How the results depend on the processing

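Of the 6052 probes called between the control-kd clones in the reported fit, the count was 379 when scanner values were only centred on the median, with 364 higher and 15 lower (the cause was not tested), where the reported split was 3068 and 2984. It was 4015 with the brightest probe per gene, 994 with a minimum of 1.2-fold in limma's treat, and 3496 to 4025 with each control-kd array left out. Under median centring alone the counts were 4331 for line 1 against parental, 11140 for line 2 against parental and 116 for the Taf5-kd pair, against 19153, 17933 and 4582 as reported. The fit with the brightest probe per gene tested 25150 probes and the reported fit 40860, so its counts, the 4015 included, have a smaller base. In it line 1 and line 2 against parental gave 12343 and 11579. With the 1.2-fold minimum line 1 and line 2 against parental gave 5858 and 5768, and the Taf5-kd pair 715. Leaving out 1 array gave 14091 to 14177 for line 1, 13200 to 13363 for line 2 and 2043 to 2761 for the Taf5-kd pair. The fit without the replicate block, that is without the array-number term, gave 8553 between the control-kd clones, and it changed no named gene's call. Leaving out the genes of the 4 chromosome stretches and chromosome Y, chosen after seeing the data, gave 5496.

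All 149 named genes were called as reported, and all kept their direction except under median centring alone. There the median of all genes moved to 0.21 and 17 genes turned sign: Bcl3 to 0.021, Bub1b to 0.10, Cdh5 to -0.19, Cenpf to 0.22, Fbxo15 to 0.0080, H2-K1 to 0.17, Ifitm1 to 0.18, Ifitm2 to 0.15, Kit to 0.048, Pcna to 0.018, Psmb10 to 0.20, Sdhb to 0.26, Taf1 to 0.050, Taf5 to 0.081, Tnrc6c to 0.18, Tpm2 to 0.0095 and Zscan4c to 0.047. With that shift subtracted, 143 of 149 had the reported sign. Of the 15 leading rises 15 were still called there, and of the 15 leading falls 6. Loess-normalized scanner values kept 139 of 149 calls and leaving out 1 control-kd array kept 125 to 131. Other probes of the named genes had the same sign in 94 of 118 cases. Of the 118, 47 were called the same way and 3 the opposite way, for Acta2, Cald1 and Stmn2. Over all called genes, 2584 of 3493 other probes had the same sign and 78 were called the opposite way. The number of arrays, 2 per clone, limits the precision, and few dim probes were called.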

Other observations

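Among probes with no gene symbol in the platform annotation, 13 were called with a difference of at least 2-fold, 8 higher and 5 lower in line 2. The largest, MMAB013800, read 0.56 and 0.70 in line 1 and -4.71 and -5.05 in line 2. It read -0.81 and -0.71 in Taf5-kd line 1 and 0.36 and 0.44 in Taf5-kd line 2. MMAB019959 read 1.00 and 1.01 against -3.79 and -4.26. Their genes are not named here.

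Counts of other gene lists follow, where 8.27% of all genes were called higher and 9.39% lower. Genes of the actin cytoskeleton and SRF were higher in 9 of 29 and lower in 1, led by Anxa1, a membrane-binding annexin, which read -2.27 and -2.21 in line 1 and -1.33 and -1.32 in line 2. Enzymes of imprinting and DNA methylation were higher in 6 of 17 and lower in none, among them the methyltransferase Dnmt3b by 0.33 ± 0.05. Keratins and epithelial genes were lower in 6 of 25 and higher in 1. Antioxidant genes were higher in 7 of 21 and lower in 2, with Gpx1, a glutathione peroxidase, higher by 0.57 ± 0.06. Wnt targets split 5 and 5 of 20, with Fzd7, a Wnt receptor, higher by 0.63 ± 0.05 and Sp5 lower by -0.64 ± 0.08. Glycolysis and hypoxia genes split 8 and 8 of 34, and the hypoxia genes Egln3 and Ndrg1 were lower by -0.67 ± 0.09 and -0.58 ± 0.08. Extracellular matrix genes, which share collagens and laminins with the endoderm list, were higher in 10 of 31 and lower in 6.

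The remaining lists gave, as higher and lower, 6 and 4 of 20 for LIF and STAT3, 3 and 4 of 17 for retinoic acid, 6 and 3 of 32 for G1/S, 3 and 3 of 14 for RNA interference, 1 and 4 of 28 for interferon, 1 and 3 of 15 for antigen presentation and 0 and 2 of 9 for zygotic genes. The list of X-inactivation and escape genes, which also holds Y-linked genes, gave 3 and 2 of 13. Its lower genes were the Y-linked Eif2s3y and Uty. Without the members on chromosome Y it gave 3 and 0 of 8, with Xist higher by 0.30 ± 0.07.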
